A study of Rattus norvegicus with 20 samples.

Results

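The solute carrier (Slc) genes of the embryonic rat testis were followed on oligonucleotide arrays over 3 stages, in culture and under 2 antiandrogens. The genes were those with a probe set annotated to a single symbol of Slc followed by a digit. Slc2a1, Slc16a3 and Slc4a1 were left out by rule. A probe set, the group of short probes that reports on 1 transcript, was kept where 2 or more of the 20 arrays read it at or above their own 40th percentile. For each gene, the probe set of highest mean log2(intensity + 16) was used. Of 292 such genes on the array, 213 passed and are described here, and 79 did not pass and were not tested. The 213 were among 11677 genes with a tested probe set. 2 of the 213, Slc4a1ap and Slc7a6os, carry a symbol derived from that of a carrier gene and are not known as transporters.

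The study used Sprague-Dawley rats, with 2 arrays for each of 10 groups. Pregnant dams were injected daily from E8 to E14 with vinclozolin, a fungicide whose metabolites block the androgen receptor, at 100 mg/kg, or with the vehicle DMSO, and testes were taken at E13, E14 or E16 (embryonic days). The E13 testes were thus collected before the injections ended. In 2 culture experiments, gonads of E13 embryos were kept for 3 days with the mesonephros attached, in medium with insulin, transferrin and glutamine. One gonad of a pair received vinclozolin at 50 µM in DMSO or flutamide, a drug that blocks the same receptor, at 0.5 µM in ethanol, and the other gonad received DMSO or ethanol alone. The cultured testis was parted from the mesonephros before RNA was extracted, and sex was read by PCR for Sry. Both arrays of a group are named as biological replicates, with no word on litters or pools, so a p-value here reflects array-to-array spread that may be technical.

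Solute carriers are membrane proteins that move small molecules without splitting ATP themselves. Some let a solute run down its gradient, others couple it to the flow of sodium ions or protons, and others swap one solute for another. The family numbers group carriers by sequence, and members of a family often share a substrate, so that Slc2 carries sugars, Slc7 and Slc38 amino acids, Slc25 the metabolites that cross the inner mitochondrial membrane, and Slc30 and Slc39 zinc. In the testis, Sertoli cells take up glucose and export lactate, which germ cells import through monocarboxylate carriers.

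The promoters of 4 genes that stand out in the comparisons described further on are shown. They are Slc25a31 and Slc22a4, with the largest rises between E13 and E16, Slc38a1, whose fall had the smallest adjusted p, and Slc7a14, with the largest rise in culture. Each window holds 250 bases before to 50 after a listed start on the GRCr8 build (chr2:125623081-125623380, plus strand for Slc25a31, chr10:38679871-38680170, minus strand for Slc22a4, chr7:129681352-129681651, minus strand for Slc38a1, chr2:113993531-113993830, plus strand for Slc7a14). For Slc25a31 and Slc7a14 that start is the first base of the RefSeq gene (125623331 and 113993781). The RefSeq genes of Slc22a4 and Slc38a1, on the minus strand, begin further upstream, at 38687409 and 129681727. The windows of these genes therefore lie inside the gene. Capitals mark matches to 5 motifs.
Slc25a31: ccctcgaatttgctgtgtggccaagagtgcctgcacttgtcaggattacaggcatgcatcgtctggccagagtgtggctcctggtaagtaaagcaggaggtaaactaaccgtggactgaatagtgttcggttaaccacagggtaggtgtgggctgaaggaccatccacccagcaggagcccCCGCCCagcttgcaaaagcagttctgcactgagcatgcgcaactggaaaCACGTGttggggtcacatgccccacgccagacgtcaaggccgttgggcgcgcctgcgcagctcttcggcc
Slc22a4: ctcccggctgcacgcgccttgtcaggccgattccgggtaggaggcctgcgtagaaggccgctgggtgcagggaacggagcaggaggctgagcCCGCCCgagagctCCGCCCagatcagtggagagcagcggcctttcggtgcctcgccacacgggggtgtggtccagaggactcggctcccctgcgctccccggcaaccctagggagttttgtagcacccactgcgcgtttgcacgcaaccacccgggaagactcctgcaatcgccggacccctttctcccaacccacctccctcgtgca
Slc38a1: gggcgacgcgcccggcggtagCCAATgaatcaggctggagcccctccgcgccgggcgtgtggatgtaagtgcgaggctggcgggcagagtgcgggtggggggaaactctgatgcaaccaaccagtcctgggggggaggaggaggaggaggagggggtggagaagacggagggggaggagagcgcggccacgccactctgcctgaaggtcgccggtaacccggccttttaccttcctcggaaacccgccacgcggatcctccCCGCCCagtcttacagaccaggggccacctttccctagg
Slc7a14: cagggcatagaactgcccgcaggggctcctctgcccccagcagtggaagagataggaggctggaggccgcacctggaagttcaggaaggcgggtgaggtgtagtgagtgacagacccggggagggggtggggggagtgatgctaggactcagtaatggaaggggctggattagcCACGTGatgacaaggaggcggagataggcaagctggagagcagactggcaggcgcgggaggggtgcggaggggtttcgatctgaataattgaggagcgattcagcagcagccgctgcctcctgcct
The motifs were searched on both strands as CACGTG (the E-box), ACGTG (the core of the hypoxia response element), GGGCGG (the GC box), CCAAT and TATAAA (the TATA box). Every CACGTG also holds ACGTG on both strands, so the matches overlap. Slc25a31 and Slc7a14 each held 1 E-box, which 6.42% of 33469 rat promoters held. Slc22a4 held 2 GC boxes and Slc25a31 and Slc38a1 1 each, against 33.1% of all promoters with at least 1. Slc38a1 also held a CCAAT box, as did 37.5% of all promoters, and none of the 4 windows held TATAAA, found in 14.2%. Over the 188 windows that matched 176 of the 213 genes, 24 held CACGTG, 55 ACGTG, 116 GGGCGG, 70 CCAAT and 13 TATAAA, while ACGTG was in 19.3% of all promoters. The median GC content was 62% in the windows of solute carriers and 51.7% in all promoters. A match is a run of letters and does not show binding.

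Between E13 and E16 the solute carriers changed in both directions. With vinclozolin and vehicle arrays averaged (4 arrays a stage), 25 rose and 24 fell of 213 at an adjusted p under 0.05 in limma, a linear model fitted to all tested probe sets. Among all 11677 genes 13.1% rose and 10.8% fell. The median difference was 0.02 on the log2 scale over the solute carriers and 0.01 over all genes. The path through E14 was not even. From E13 to E14, 46 rose and 11 fell, against 16.5% and 13.4% of all genes, with medians of 0.23 and 0.09. From E14 to E16, 19 rose and 64 fell, against 22.2% and 26.3% of all genes, with medians of -0.16 and -0.04. The stage comparisons share arrays, the E14 arrays entering both steps with opposite sign, so the opposite signs are not independent. With the arrays quantile normalized, 33 rose and 15 fell from E13 to E14, against 13.4% and 13.7% of all genes.

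The same stages can be compared within the vinclozolin arrays and within the vehicle arrays, which have no array in common. From E13 to E16, 19 solute carriers changed in the vinclozolin arrays and 24 in the vehicle arrays, and 16 of them were the same genes with the same direction, 84.2% of the first list and 66.7% of the second. From E14 to E16, 56 changed in the vinclozolin arrays and 45 in the vehicle arrays, with 32 in common and in the same direction. From E13 to E14, 29 and 6 passed, with 4 in common. Of all genes, 8.45% and 11% passed from E13 to E16 in the vinclozolin and vehicle arrays, 33.7% and 25.5% from E14 to E16, and 19.9% and 3.33% from E13 to E14.

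Other cell types moved with stage. Leydig cell markers rose from E13 to E16 for 7 of 7 genes, and their summed rescaled intensity was 262 to 406 at E13, 551 to 775 at E14 and 10777 to 20976 at E16. Erythroid markers rose for 5 of 9, with sums of 1224 to 6938, 3837 to 14142 and 16988 to 31157 at the 3 stages, and smooth muscle markers rose for 4 of 5. Mesonephros and tubule markers fell for 3 of 7, with sums of 1169.6 to 1901 at E13, 928 to 1795 at E14 and 601 to 752 at E16. A single gene, Emx2, made up most of these sums, with 916 to 1460.6 at E13 and 398.6 to 643.7 at E16. Sertoli cell markers rose for 3 of 6, with sums of 935 to 2506 at E13, 2719 to 7781 at E14 and 3493 to 4242 at E16. Of 8 germ cell markers only Kit and Tdrd1 had a tested probe set, with sums of 87.2 to 287 over the 12 arrays. None of the markers tested was at 0. The E13 arrays numbered 1 held the 2 lowest Sertoli and erythroid sums of their stage, and vehicle array 1 held the lowest Sertoli and highest erythroid sum of E14. In bulk tissue, fewer cells of a type and less RNA per cell cannot be told apart, and the part of these cell types in the results was not tested.

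**Figure D1:**
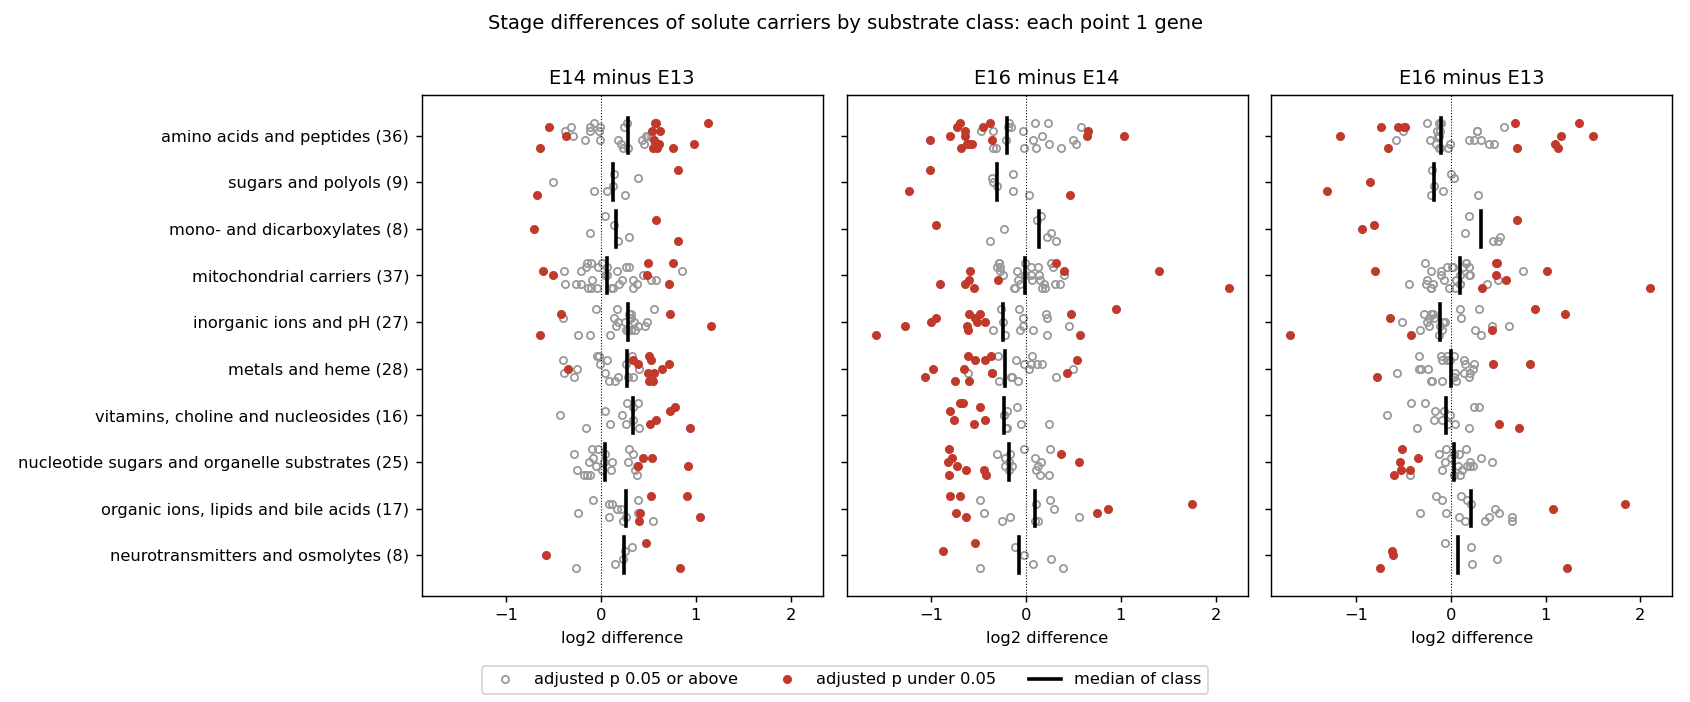
Log2 differences between stages (x axis) of the 211 transporters by substrate class (y axis, number of genes in brackets), each point 1 gene and each black line the median of its class; filled points passed an adjusted p of 0.05. Most filled points lie right of 0 from E13 to E14 (46 rose, 11 fell over all 213 genes) and left of 0 from E14 to E16 (19 rose, 64 fell).

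Of 36 carriers of amino acids and peptides, 7 rose and 6 fell between E13 and E16. Slc6a17, a carrier of neutral amino acids into synaptic vesicles, had intensities of 77.4 and 51.8 on the vinclozolin arrays and 81.6 and 59.5 on the vehicle arrays of E13. At E14, Slc6a17 read 86.8 and 70.9 on the vinclozolin arrays and 216 and 67 on the vehicle arrays. At E16, Slc6a17 read 192 and 192 on the vinclozolin arrays and 236 and 261 on the vehicle arrays. Its E16 arrays lay above all those of E13, while 1 of the 4 E14 arrays, vehicle array 1, read within the range of E16. The E16 to E13 difference of Slc6a17 was 1.50 (SE 0.23, limma, adjusted p = 0.000204), and its second tested probe set differed by 0.37.

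Slc7a10, an exchanger of small neutral amino acids such as serine and glycine, had intensities of 19.1 and 31.3 on the vinclozolin arrays and 24.9 and 17.1 on the vehicle arrays of E13. At E14, Slc7a10 read 43.5 and 74.9 on the vinclozolin arrays and 92.7 and 70.7 on the vehicle arrays. At E16, Slc7a10 read 73.6 and 86 on the vinclozolin arrays and 76.8 and 97.7 on the vehicle arrays. The rise of Slc7a10 was already present at E14, and neither later stage overlapped with E13. Slc7a10 was 1.13 (SE 0.19, limma, adjusted p = 0.000723) at E14 against E13 and 1.36 (SE 0.19, limma, adjusted p = 9.61e-05) at E16 against E13. All E13 readings were under the 40th percentile of their arrays, and counted from that percentile the E16 difference was 0.96.

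Slc38a1, a sodium-coupled carrier of glutamine and other neutral amino acids, had intensities of 651 and 583 on the vinclozolin arrays and 591 and 634 on the vehicle arrays of E13. At E14, Slc38a1 read 454 and 534 on the vinclozolin arrays and 461 and 444 on the vehicle arrays. At E16, Slc38a1 read 297 and 276 on the vinclozolin arrays and 237 and 254 on the vehicle arrays. The levels of Slc38a1 stepped down at each stage, and the stages did not overlap. Its E16 to E13 difference was -1.16 (SE 0.10, limma, adjusted p = 8.89e-07), the smallest adjusted p of any solute carrier in this comparison, and 2 other probe sets differed by -0.58 and -1.20. From E13 to E14 Slc38a1 fell by 0.37, a call that was lost without any of 3 single arrays (highest adjusted p 0.0583) and that its other probe sets did not share (differences of -0.0026 and 0.35).

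Among the other amino acid carriers, Slc16a10, which carries aromatic amino acids, rose by 1.16 (SE 0.21, limma, adjusted p = 0.00106) and the intestinal type peptide carrier Slc15a1 by 1.13 (SE 0.21, limma, adjusted p = 0.00112). Slc7a12 rose by 1.10, but all its E13 readings were under the 40th percentile, from which the difference was 0.21. In the vinclozolin arrays alone the calls of Slc16a10 and Slc7a12 were lost (limma, adjusted p = 0.117 and 0.112). Slc3a2, the heavy chain that brings the Slc7 exchangers to the membrane, rose by 0.67 (SE 0.12, limma, adjusted p = 0.000735). Its partner Slc7a8 rose by 0.70, while its partner Slc7a5 had a difference of 0.27 (SE 0.21, limma, adjusted p = 0.417). Slc7a11, the light chain that exchanges cystine for glutamate, fell by 0.66, a call lost without any of 4 single arrays (highest adjusted p 0.0884), and by 0.21 from the 40th percentile, under which all its E16 readings lay. The glutamate carrier Slc1a3 fell by 0.74, a call lost without either E13 array numbered 1 (highest adjusted p 0.0633). Its other 2 probe sets did not pass, with differences of -0.55 and -0.11 (limma, adjusted p = 0.162 and 0.821). Slc7a1, a carrier of arginine and lysine, and Slc38a2, another glutamine carrier, fell by 0.49 and 0.48.

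**Figure D2:**
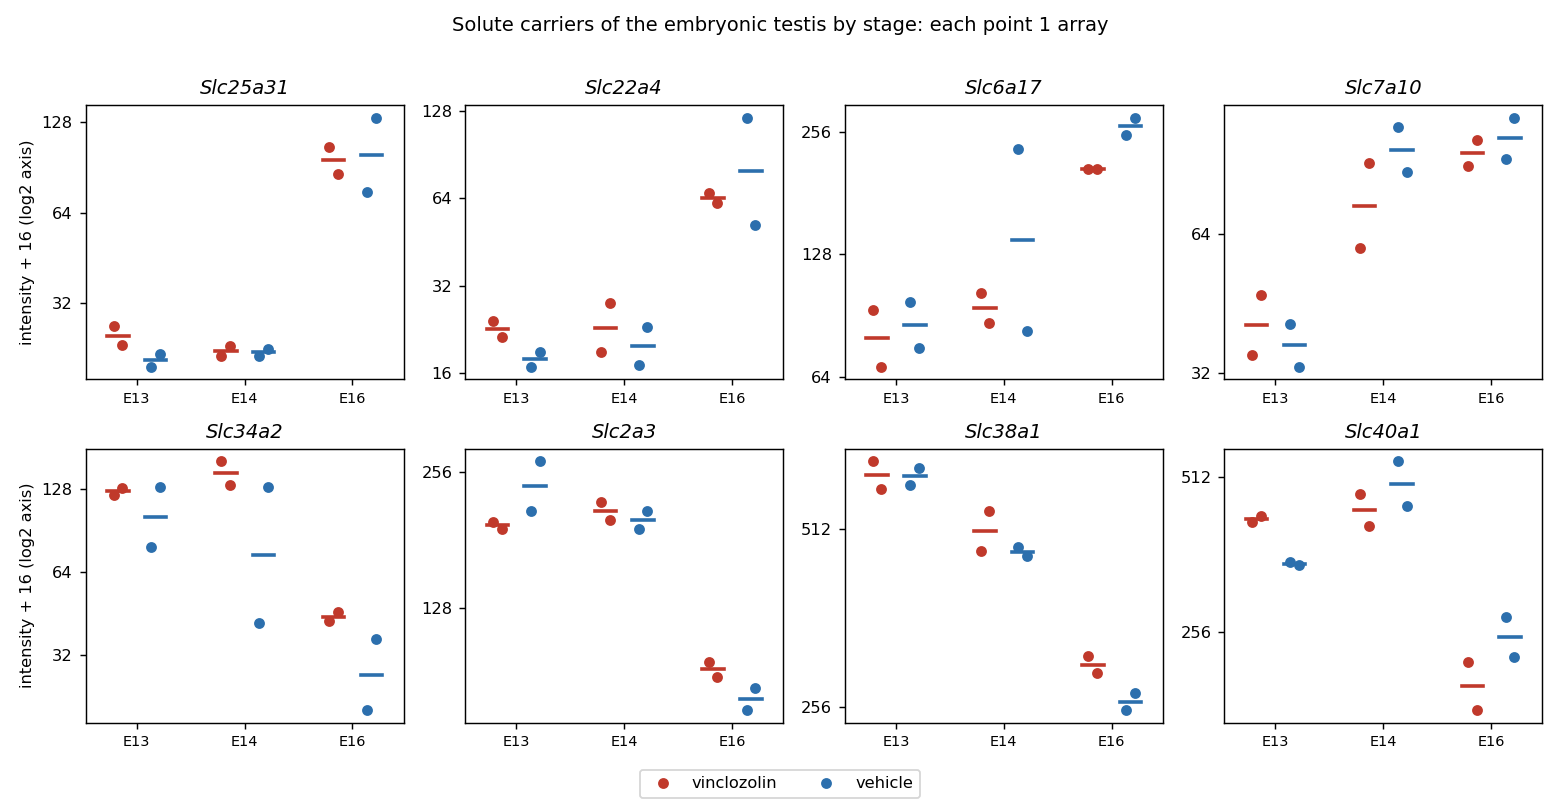
Intensity plus 16 (log2 axis) of 8 solute carriers at E13, E14 and E16, with vinclozolin arrays left of vehicle arrays, each point 1 array and each bar the mean of 2 log2 values. Slc25a31 and Slc22a4 stood near the floor until E16, Slc7a10 was higher at E14 and E16 than at E13, and Slc2a3 and Slc38a1 were lowest at E16.

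Of 9 carriers of sugars and polyols, none rose and 2 fell. Slc2a3, a glucose carrier of high affinity (GLUT3), had intensities of 183 and 176 on the vinclozolin arrays and 194 and 255 on the vehicle arrays of E13. At E14, Slc2a3 read 204 and 185 on the vinclozolin arrays and 176 and 194 on the vehicle arrays. At E16, Slc2a3 read 81.6 and 74.5 on the vinclozolin arrays and 60.3 and 69.3 on the vehicle arrays. The E13 and E14 readings of Slc2a3 overlapped, and all 4 at E16 were below every earlier one. Slc2a3 fell by 1.31 between E13 and E16 (SE 0.14, limma, adjusted p = 5.58e-06), with the same direction in its other probe set (-0.59). The fructose carrier Slc2a5 fell by 0.85. Slc5a3, a sodium-coupled carrier of myo-inositol, had a difference of -0.08 (SE 0.25, limma, adjusted p = 0.871).

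Of 8 carriers of mono- and dicarboxylates, 1 rose and 2 fell. Slc16a1, which carries lactate and pyruvate with a proton, read 486 to 675 on the 4 arrays of E16, against 519 to 565 at E13, and did not pass the test, with a difference of 0.15 (SE 0.13, limma, adjusted p = 0.493). Slc16a13, a relative of the lactate carriers, had intensities of 162 and 168 on the vinclozolin arrays and 158 and 114 on the vehicle arrays of E13. At E14, Slc16a13 read 172 and 156 on the vinclozolin arrays and 206 and 134 on the vehicle arrays. At E16, Slc16a13 read 90.3 and 86.1 on the vinclozolin arrays and 74.9 and 62.2 on the vehicle arrays. The E16 readings of Slc16a13 lay below all those of E13 and E14. Slc16a13 differed by -0.81 (SE 0.15, limma, adjusted p = 0.000969), and by -0.95 in its other probe set. Slc16a6 rose by 0.70. Slc16a12, a creatine carrier, fell by 0.93, with all E16 readings and 3 of 4 at E13 under the 40th percentile. Its difference was 0.03 when counted from there.

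Of 37 carriers of the mitochondrial Slc25 family, 7 rose and 1 fell. Slc25a31, an ADP/ATP carrier known from mouse germ cells (GRCr8 chr2:125623331-125639155), had intensities of 10.8 and 7.3 on the vinclozolin arrays and 3.7 and 5.7 on the vehicle arrays of E13. At E14, Slc25a31 read 5.3 and 7.1 on the vinclozolin arrays and 5.4 and 6.6 on the vehicle arrays. At E16, Slc25a31 read 89.8 and 70.5 on the vinclozolin arrays and 59.1 and 117 on the vehicle arrays. Slc25a31 was under the 40th percentile on all arrays of E13 and E14 and above it on all 4 of E16, with no overlap. In utero it thus met the filter only through E16, the stage where it was high, so the lack of overlap is partly built in. The difference between E16 and E13 was 2.10 (SE 0.23, limma, adjusted p = 8.75e-06), and 0.94 when counted from the 40th percentile. The difference passed in the vinclozolin arrays alone (1.94) and in the vehicle arrays alone (2.27). Of the germ cell markers, Tdrd1 read 36.1 to 94.6 at E13 and 77 to 211 at E16. Kit read 38.6 to 77 at E13 and 10.2 to 75.2 at E16. Neither marker passed the test between these stages, and the part of germ cells in Slc25a31 was not tested.

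Slc25a21, a carrier of oxodicarboxylates, rose by 1.02 from E13 to E16 and by 1.40 (SE 0.29, limma, adjusted p = 0.00111) from E14 to E16. Its E14 readings were under the 40th percentile, from which the second difference was 0.41. Slc25a13, which exports aspartate from mitochondria in exchange for glutamate, had intensities of 622 and 661 on the vinclozolin arrays and 592 and 643 on the vehicle arrays of E13. At E14, Slc25a13 read 568 and 557 on the vinclozolin arrays and 461 and 591 on the vehicle arrays. At E16, Slc25a13 read 348 and 351 on the vinclozolin arrays and 449 and 285 on the vehicle arrays. All 4 E16 readings of Slc25a13 were below those of both earlier stages. It fell by 0.80 (SE 0.13, limma, adjusted p = 0.000297), and its other probe set had a difference of -0.80. Slc25a4 and Slc25a5, ADP/ATP carriers of many tissues, had differences of 0.04 (SE 0.10, limma, adjusted p = 0.821) and 0.16 (SE 0.11, limma, adjusted p = 0.325).

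Of 27 carriers of inorganic ions and acid equivalents, 3 rose and 3 fell between E13 and E16. Slc34a2, a sodium-phosphate cotransporter of epithelia, had intensities of 106 and 113 on the vinclozolin arrays and 62.6 and 114 on the vehicle arrays of E13. At E14, Slc34a2 read 145 and 116 on the vinclozolin arrays and 25.8 and 114 on the vehicle arrays. At E16, Slc34a2 read 26.4 and 29.9 on the vinclozolin arrays and 4.3 and 20.6 on the vehicle arrays. The E16 readings of Slc34a2 did not overlap with those of E13 and were all under the 40th percentile. E14 vehicle array 1 read close to E16, and the other 3 E14 arrays read within or above the range of E13. Slc34a2 differed by -1.70 (SE 0.30, limma, adjusted p = 0.000781), and by -1.07 when counted from the 40th percentile. Mesonephros and tubule markers, another epithelium, fell between the same stages (3 of 7) with a median of -0.84, and their part in Slc34a2 was not tested. E14 vehicle array 1, low for Slc34a2, held the highest mesonephros sum of its stage (1795, against 928 to 1280.0 on the other 3 arrays).

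Slc9a9, a sodium-proton exchanger of endosomes, rose by 1.20 (SE 0.15, limma, adjusted p = 4.12e-05) from E13 to E16, and Slc8a1, the sodium-calcium exchanger of the plasma membrane, by 0.89 (SE 0.14, limma, adjusted p = 0.000212). Slc8a1 read 338 to 444 on the E16 arrays, against 195 to 212 at E13 and 154 to 244 at E14, and E13 and E14 overlapped. Slc4a2, the chloride-bicarbonate exchanger AE2, had intensities of 259 and 384 on the vinclozolin arrays and 281 and 402 on the vehicle arrays of E13. At E14, Slc4a2 read 999 and 761 on the vinclozolin arrays and 496 and 832 on the vehicle arrays. At E16, Slc4a2 read 278 and 346 on the vinclozolin arrays and 271 and 311 on the vehicle arrays. All 4 E14 readings of Slc4a2 were above every reading of the other stages. Slc4a2 rose by 1.16 (SE 0.20, limma, adjusted p = 0.000709) from E13 to E14, and from E14 to E16 it fell by 1.28 (SE 0.20). In the vehicle arrays alone the rise was 0.90 with an adjusted p of 0.0843. Slc12a7, a potassium-chloride cotransporter, fell by 0.95 from E14 to E16, and the potassium-dependent sodium-calcium exchanger Slc24a3 by 1.00. The phosphate carrier Slc20a1 had an E16 to E13 difference of -0.12 (SE 0.14, limma, adjusted p = 0.583).

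Of 28 carriers of metals and heme, 10 rose and 1 fell from E13 to E14, 2 rose and 10 fell from E14 to E16, and 2 rose and 1 fell between E13 and E16. Slc40a1, ferroportin, which exports iron from cells, had intensities of 403 and 414 on the vinclozolin arrays and 334 and 329 on the vehicle arrays of E13. At E14, Slc40a1 read 458 and 396 on the vinclozolin arrays and 534 and 434 on the vehicle arrays. At E16, Slc40a1 read 207 and 164 on the vinclozolin arrays and 257 and 213 on the vehicle arrays. E14 and E16 did not overlap for Slc40a1, and E16 lay below E13. It fell by 0.78 between E13 and E16 (SE 0.12, limma, adjusted p = 0.000326) and by 1.06 from E14 to E16. In the vehicle arrays alone the first difference was -0.47 and did not pass (adjusted p = 0.11). Slc41a3, a magnesium carrier, rose by 0.84 (SE 0.14, limma, adjusted p = 0.000485). The zinc importers Slc39a3, Slc39a11, Slc39a7 and Slc39a1 each rose from E13 to E14 and fell from E14 to E16, with falls of 0.98, 0.75, 0.61 and 0.43. For Slc39a3 the other probe set had a difference of 0.02 from E14 to E16. Slc39a8, a carrier of zinc, manganese and cadmium, differed by -0.21 (SE 0.27, limma, adjusted p = 0.651) between E13 and E16.

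Of 17 carriers of organic ions, lipids and bile acids, 2 rose and none fell. Slc22a4, a carrier of ergothioneine and organic cations (GRCr8 chr10:38634098-38687409), had intensities of 8.1 and 5.2 on the vinclozolin arrays and 0.8 and 2.9 on the vehicle arrays of E13. At E14, Slc22a4 read 2.8 and 11.8 on the vinclozolin arrays and 1 and 7 on the vehicle arrays. At E16, Slc22a4 read 51.1 and 45.6 on the vinclozolin arrays and 106 and 35.9 on the vehicle arrays. All readings before E16 were under the 40th percentile, and the 4 E16 readings were above all of them. Slc22a4 too met the filter in utero only through E16, the stage where it was high. The difference of Slc22a4 was 1.83 (SE 0.26, limma, adjusted p = 9.41e-05), and 0.49 from the 40th percentile. Its highest reading fell on E16 vehicle array 1, which also had the highest erythroid sum (31157). On E14 vehicle array 1, with an erythroid sum of 14142, it read 1, under the 40th percentile. The part of erythroid cells in Slc22a4 was not tested. Slc22a24 rose by 1.08, a call lost without any of 4 single arrays (highest adjusted p 0.0939), and its difference was 0.26 from that percentile. The fatty acid carriers Slc27a1 and Slc27a3 peaked at E14, where they exceeded E13 by 0.90 (SE 0.11, limma, adjusted p = 0.000124) and 1.04 (SE 0.19, limma, adjusted p = 0.00113). In the vehicle arrays alone the call of Slc27a3 was lost (limma, adjusted p = 0.125). Slc22a17 differed by -0.16 (SE 0.12, limma, adjusted p = 0.383) between E13 and E16.

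Of 8 carriers of neurotransmitters and osmolytes, 1 rose and 3 fell. Slc6a9, the glycine carrier GlyT1, read 227 to 239 at E16, against 75.3 to 106 at E13 and 140 to 267 at E14, with E13 below both later stages. Its difference was 1.23 (SE 0.18, limma, adjusted p = 0.000117). The other 2 probe sets of Slc6a9 differed by 0.78 (limma, adjusted p = 0.0102) and by 0.41, which missed the threshold (limma, adjusted p = 0.465). Slc6a6, the taurine carrier, had intensities of 375 and 268 on the vinclozolin arrays and 352 and 254 on the vehicle arrays of E13. At E14, Slc6a6 read 418 and 516 on the vinclozolin arrays and 280.1 and 311 on the vehicle arrays. At E16, Slc6a6 read 179 and 232 on the vinclozolin arrays and 199.8 and 172 on the vehicle arrays. The 4 E16 readings of Slc6a6 were below those of both earlier stages. Slc6a6 fell by 0.62 (SE 0.14, limma, adjusted p = 0.00463). Slc6a4, the serotonin carrier, and Slc18a2, which loads monoamines into vesicles, fell by 0.61 and 0.74. Adrenal and neural crest markers, which include Th and Dbh, fell for 3 of 6 between the same stages.

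Of 16 carriers of vitamins, choline and nucleosides, 2 rose and none fell between E13 and E16, and none rose and 7 fell from E14 to E16. The riboflavin carrier Slc52a3 rose by 0.72 (SE 0.17, limma, adjusted p = 0.00644), or 0.26 from the 40th percentile, and the thiamine carrier Slc19a2 by 0.51 (SE 0.14, limma, adjusted p = 0.017). Slc44a1, a choline carrier, had a difference of 0.05 (SE 0.12, limma, adjusted p = 0.832). Of 25 carriers of nucleotide sugars and organelle substrates, none rose and 6 fell. The 6 that fell were Slc35e3 (-0.59), Slc35c1 (-0.53), the GDP-fucose carrier of the Golgi, Slc37a4 (-0.53), the glucose-6-phosphate carrier of the endoplasmic reticulum, Slc35e1 (-0.52), the CMP-sialic acid carrier Slc35a1 (-0.43) and Slc35a4 (-0.34). Slc35b1, which brings ATP into the endoplasmic reticulum, differed by -0.05 (SE 0.13, limma, adjusted p = 0.835).

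The remaining genes named by rule for the steps through E14 were these. From E13 to E14 the rises of Slc38a5 (0.98), Slc52a3 (0.94), Slc66a2 (0.92), Slc6a9 (0.83) and Slc25a23 (0.76) passed also without any single array, as did the falls of Slc2a13 (-0.67), Slc12a2 (-0.64) and Slc25a46 (-0.61). In the vehicle arrays alone, however, the calls of Slc38a5, Slc52a3, Slc2a13, Slc12a2 and Slc25a46 were lost. Slc6a9 lost its call in the vinclozolin arrays alone, and Slc38a5 also with only the arrays of the comparison. The calls of Slc16a9 (0.82), Slc7a11 (-0.64), Slc6a4 (-0.58), Slc25a36 (-0.51) and Slc31a1 (-0.35) were lost without 3 to 7 of the 8 arrays taken singly, with highest adjusted p-values of 0.0617, 0.0638, 0.0842, 0.186 and 0.143. From E14 to E16 the falls of Slc66a1 (-1.01), Slc25a10 (-0.91), Slc16a13 (-0.95), Slc2a3 (-1.24) and Slc6a6 (-0.88) passed without any single array. The rises of Slc22a24 (0.86), Slc14a1 (0.75), Slc16a10 (0.64), Slc8a2 (0.57), Slc30a9 (0.43) and Slc25a46 (0.41) were each lost without 3 to 5 arrays taken singly, with highest adjusted p-values of 0.146, 0.0644, 0.15, 0.162, 0.0959 and 0.138. Without E16 vehicle array 1, the value of Slc16a10 was 0.34, and the lowest value of Slc25a46 on leaving out an array was 0.24. Counted from the 40th percentile, under which 1 of the stages lay on all arrays, the first-step differences of Slc7a11 and Slc52a3 were -0.19 and 0.47. On the same footing the second-step differences of Slc22a24, Slc14a1 and Slc8a2 were 0.16, 0.12 and 0.08.

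Genes that work with the solute carriers were read from 3 further lists. Of 27 tested carriers that bear other symbols, 3 rose and 4 fell from E13 to E16. Mpc1, a subunit of the mitochondrial pyruvate carrier, rose by 0.65 and the phosphate exporter Xpr1 fell by 0.62. Of 12 tested partner proteins, 3 rose and 1 fell. The risers were ceruloplasmin, Cp (1.04), which oxidizes the iron that ferroportin exports, the kinase Sgk1 (0.62) and embigin, Emb (0.56), a chaperone of monocarboxylate carriers. Of 25 tested subunits of the sodium pump and the vacuolar proton pump, which make the gradients that coupled carriers use, 8 rose and none fell, among them Fxyd1 (1.38), Fxyd5 (1.17) and Atp1b2 (0.88).

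The cultured testes were set against testes grown in utero, at the stage of explant (E13) and at the same nominal age (E16). The authors scaled the 3 sets of arrays separately, to trimmed means of 210.1, 218 and 107, so all arrays were first rescaled to a trimmed mean of 210.1. Against the E13 vehicle arrays, 42 rose and 15 fell of 213 in DMSO culture, against 9.67% and 13.5% of all genes, with medians of 0.19 and -0.06. In ethanol culture 63 rose and 13 fell, against 16.3% and 13.7% of all genes, with medians of 0.36 and 0.05. Against the E16 vehicle arrays, 42 rose and 12 fell in DMSO culture, against 9.14% and 13.7% of all genes, with medians of 0.20 and -0.06. Some genes that passed had other tested probe sets. In ethanol culture 18 of 28 such probe sets had the same direction, and 2 passed in the opposite direction. In DMSO culture it was 17 of 20 against E13 and 16 of 18 against E16, with 0 passing in the opposite direction.

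Culture and array set cannot be told apart in these comparisons, and those with E13 share the 2 E13 vehicle arrays. For ethanol culture the scaling moved the median of all probe sets, which was 0.14 on the common trimmed mean and 0.01 after quantile normalization, so its differences are read relative to 0.14. The ratio of 3' to 5' beta-actin probe sets, high where RNA is degraded or reverse transcription stopped short, was 9.08 to 11.1 on the arrays of the flutamide experiment and 1.73 to 3.90 on all others. Erythroid markers fell for 5 of 9 in DMSO culture against E13 and for 9 of 9 against E16, with summed rescaled intensities of 366 to 498 in DMSO culture and 2087 to 2222 in ethanol culture, against 1224 and 6938 on the E13 vehicle arrays and 16988 and 31157 on those of E16. Leydig cell markers rose for 7 of 7 and Sertoli cell markers for 4 of 6 in both cultures against E13, smooth muscle markers fell for 5 of 5 in DMSO culture against E16, and Leydig cell markers fell for 4 of 7 in the same comparison. Their part in the results was not tested.

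**Figure D3:**
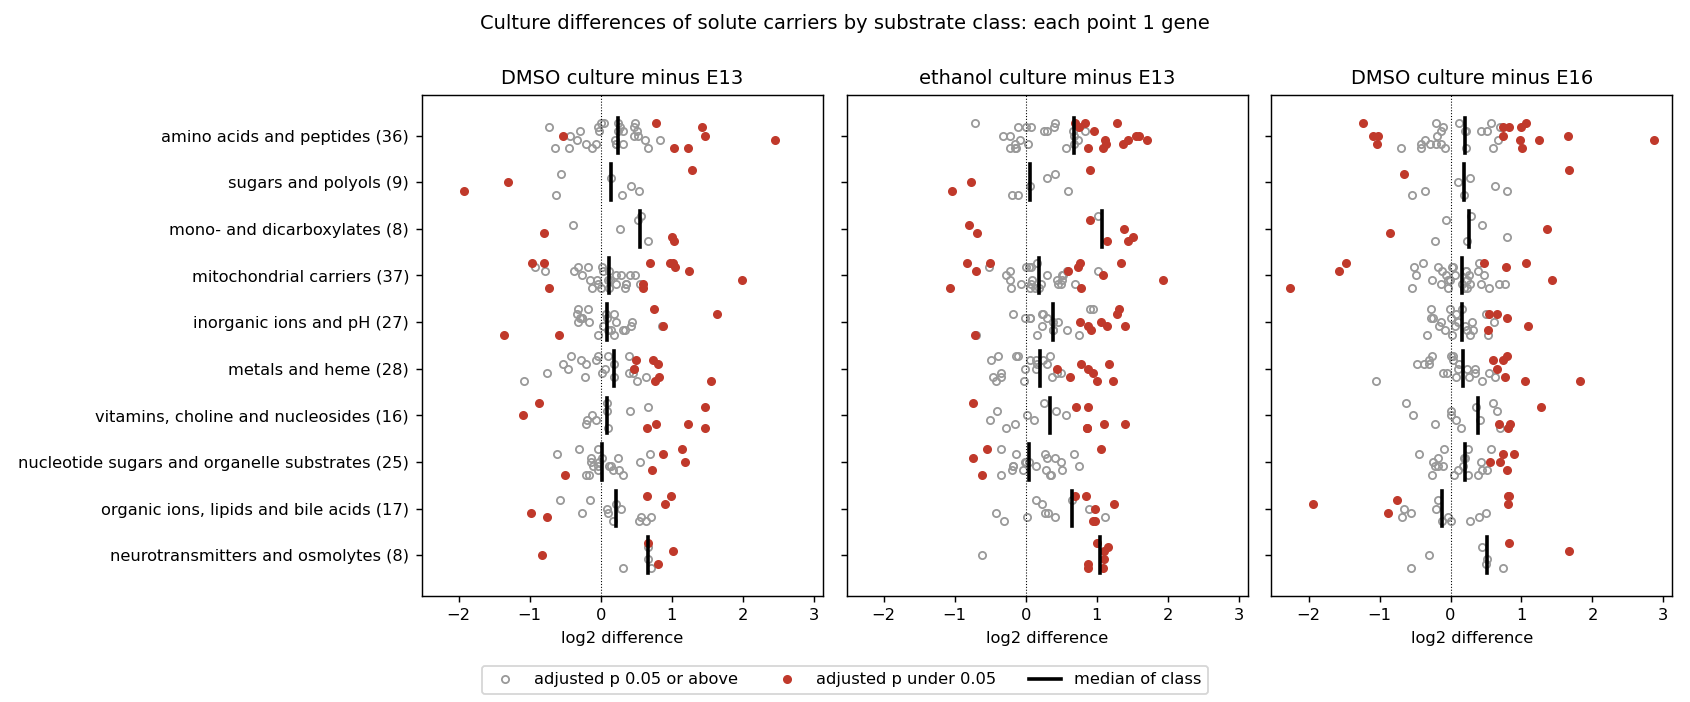
Log2 differences (x axis) between cultured testes and testes in utero for the 211 transporters by substrate class (y axis, number of genes in brackets), each point 1 gene, each black line the median of its class, filled points at an adjusted p under 0.05. Over all 213 genes, 42 rose and 15 fell in DMSO culture against E13, 63 and 13 in ethanol culture against E13, and 42 and 12 in DMSO culture against E16.

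Slc7a14, a vacuolar membrane protein related to the arginine carriers, had rescaled intensities of 73.8 and 161 in DMSO culture and 50.6 and 42.2 in ethanol culture. In utero, Slc7a14 read 9.3 and 4.9 on the E13 vehicle arrays and 0.9 and 1.6 on the E16 vehicle arrays. Slc7a14 was under the 40th percentile on all 4 in utero vehicle arrays and above it in DMSO culture, with no overlap. Among the groups compared here it met the filter only through DMSO culture, where it was high. The lack of overlap is thus partly built in. It exceeded E13 by 2.45 (SE 0.33, limma, adjusted p = 0.000124) and E16 by 2.87 (SE 0.33, limma, adjusted p = 3.58e-05) in DMSO culture, and E13 by 1.44 (SE 0.33, limma, adjusted p = 0.00424) in ethanol culture. Counted from the 40th percentile, the DMSO differences were 1.34 and 1.30. Both ethanol readings were themselves under that percentile, so the 0.45 counted there is only the gap between the percentiles of the arrays.

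Of the 36 amino acid carriers, 6 rose and 1 fell in DMSO culture against E13, 14 rose and none fell in ethanol culture against E13 and 10 rose and 4 fell in DMSO culture against E16. Slc7a3, a carrier of arginine and lysine, had rescaled intensities of 83.2 and 85.4 in DMSO culture and 95 and 86.2 in ethanol culture, against 15.8 and 25.1 at E13. The differences of Slc7a3 were 1.47 (SE 0.28, limma, adjusted p = 0.00189) and 1.56 (SE 0.28, limma, adjusted p = 0.000844), or 1.01 and 1.09 from the 40th percentile. Slc3a1, the heavy chain of the cystine and dibasic amino acid carrier, rose by 1.43 in DMSO culture, a call lost without DMSO array 2 (value 0.96, adjusted p = 0.135). In ethanol culture Slc36a2, a proton-coupled carrier of glycine and proline, rose by 1.71, or 0.49 from the 40th percentile, and Slc6a17 by 1.59. The 0.49 includes the gap between the percentiles of the ethanol and E13 arrays. Slc38a1 fell by 0.53 in DMSO culture against E13 and exceeded E16 by 0.74, its cultured level of 441 and 399 lying between 591 and 634 at E13 and 237 and 254 at E16. Slc7a10 fell by 1.23 against E16, or by 0.91 from the 40th percentile, and differed from E13 by 0.25 (SE 0.28, limma, adjusted p = 0.572), with 26.8 and 28.7 in DMSO culture.

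Slc2a3 had rescaled intensities of 45.1 and 48.9 in DMSO culture and 93 and 108 in ethanol culture. In utero, Slc2a3 read 194 and 255 on the E13 vehicle arrays and 60.3 and 69.3 on the E16 vehicle arrays. Slc2a3 was lower in both cultures than at E13, with no overlap, and the DMSO culture readings were also below those of E16. It fell by 1.92 in DMSO culture (SE 0.20, limma, adjusted p = 1.13e-05) and by 1.04 in ethanol culture (SE 0.20, adjusted p = 0.00119), both against E13. Its other probe set had differences of -0.49 and -0.70, and neither passed. The fructose carrier Slc2a5 also fell in both, by 1.30 and 0.77, calls that were lost without DMSO array 2 (adjusted p = 0.0543) and without 3 single arrays in ethanol culture (highest adjusted p 0.361, with a value of -0.42). Slc45a4, a relative of sugar carriers, rose by 1.28, a call lost without E13 vehicle array 1 (adjusted p = 0.054), and exceeded E16 by 1.66 (SE 0.29, limma, adjusted p = 0.000821).

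Slc16a1, the carrier of lactate and pyruvate, had rescaled intensities of 296 and 317 in DMSO culture and 347 and 319 in ethanol culture. In utero, Slc16a1 read 565 and 529 on the E13 vehicle arrays and 486 and 653 on the E16 vehicle arrays. All 4 cultured readings of Slc16a1 were below all 4 of the in utero vehicle arrays. The differences were -0.80 (SE 0.19, limma, adjusted p = 0.00658) in DMSO culture against E13, -0.69 (SE 0.19, limma, adjusted p = 0.011) in ethanol culture against E13 and -0.85 (SE 0.19, limma, adjusted p = 0.00439) in DMSO culture against E16. The third call was lost without E16 vehicle array 2 (adjusted p = 0.0537) and the ethanol call without either of 2 arrays (highest adjusted p 0.0775). Basigin, Bsg, and embigin, the chaperones of this carrier, fell by 1.04 and 1.42 in DMSO culture against E13. The citrate carrier Slc13a5 and the relative Slc16a9 rose by 1.00 and 1.03 in DMSO culture, with 0.80 for Slc13a5 from the 40th percentile. In ethanol culture the dicarboxylate carrier Slc13a2 and the creatine carrier Slc16a12 rose by 1.45 and 1.38, and by as little as 1.10 and 1.05 without a single array. From the 40th percentile the differences were 0.53 and 1.26, which include the gap between the percentiles of the ethanol and E13 arrays.

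**Figure D4:**
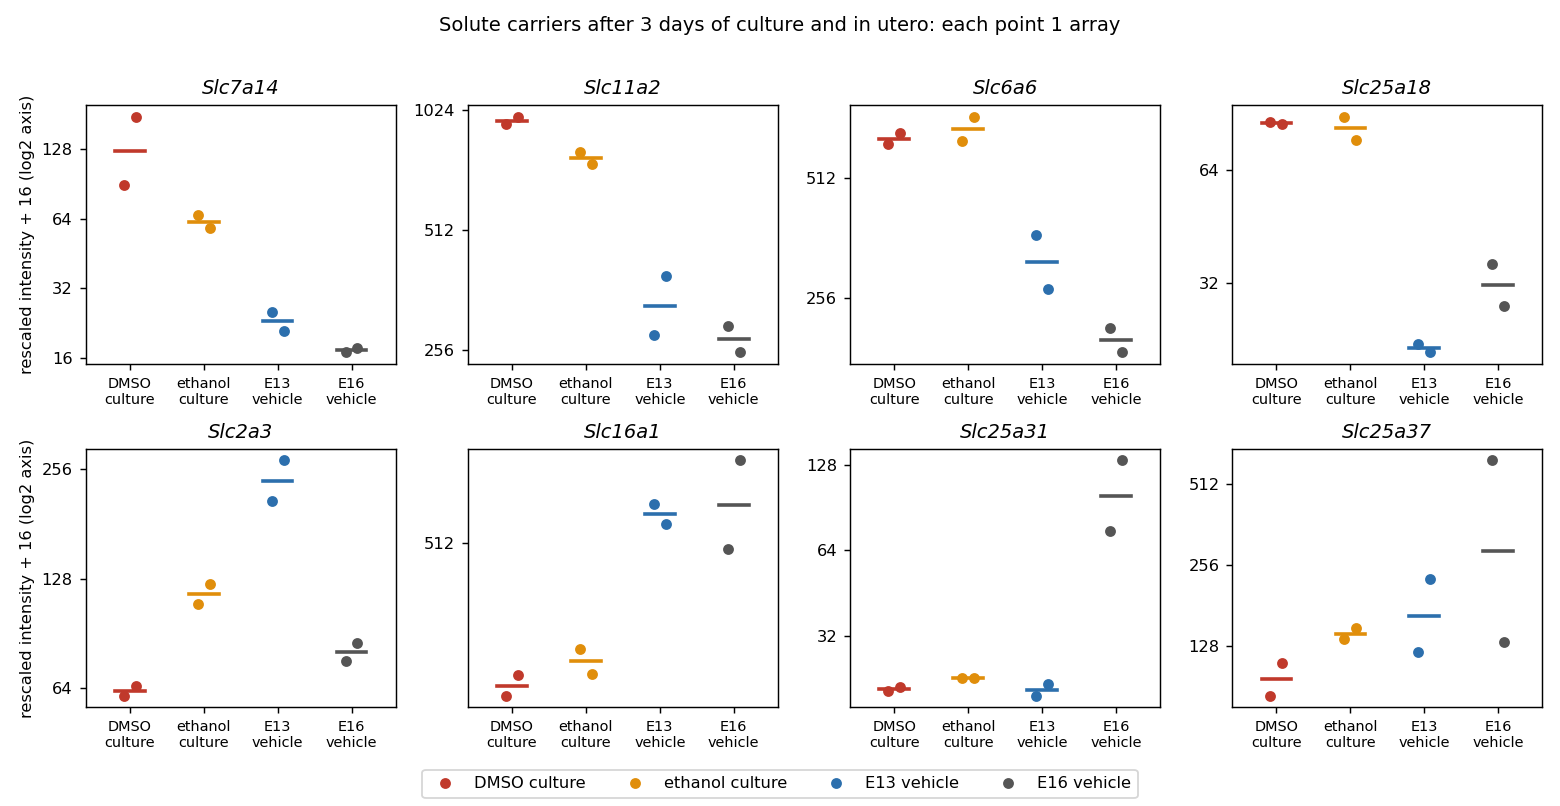
Rescaled intensity plus 16 (log2 axis) of 8 solute carriers in DMSO culture, ethanol culture and on the vehicle arrays of E13 and E16, each point 1 array and each bar the mean of 2 log2 values. Slc7a14, Slc11a2, Slc6a6 and Slc25a18 were higher in both cultures than at E13, Slc2a3 and Slc16a1 were lower, and the rise of Slc25a31 seen at E16 in utero was not seen in culture.

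Slc25a31 had rescaled intensities of 4.4 and 5.1 in DMSO culture and 6.7 and 6.7 in ethanol culture. In utero, Slc25a31 read 3.7 and 5.7 on the E13 vehicle arrays and 59.1 and 117 on the E16 vehicle arrays. The 4 cultured readings of Slc25a31 were near those of E13 and under the 40th percentile. DMSO culture was -2.27 (SE 0.38, limma, adjusted p = 0.000705) against E16, and -0.87 from the 40th percentile. Slc22a4 had rescaled intensities of 7.2 and 2.6 in DMSO culture and 9.6 and 1 in ethanol culture. In utero, Slc22a4 read 0.8 and 2.9 on the E13 vehicle arrays and 106 and 35.9 on the E16 vehicle arrays. Slc22a4 showed the same order, with a DMSO culture to E16 difference of -1.93 (SE 0.39, limma, adjusted p = 0.00224), or -0.54 from the 40th percentile. Neither gene passed the test in DMSO culture against E13, where the differences were 0.01 and 0.22 with adjusted p-values of 0.992 and 0.729.

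Slc25a18, which carries glutamate into mitochondria, had rescaled intensities of 70 and 68.8 in DMSO culture and 72.6 and 61 in ethanol culture. In utero, Slc25a18 read 6.1 and 5 on the E13 vehicle arrays and 20.1 and 11.9 on the E16 vehicle arrays. Slc25a18 was higher in both cultures than on all in utero vehicle arrays, where it lay under the 40th percentile. Among these groups it met the filter only through culture, where it was high, so the lack of overlap is partly built in. It rose by 1.99 (SE 0.29, limma, adjusted p = 0.000229) in DMSO culture and 1.94 (SE 0.29, limma, adjusted p = 0.000193) in ethanol culture, and by 0.77 and 0.73 from the 40th percentile. Slc25a37, mitoferrin, which brings iron into the mitochondria of red cell precursors, had rescaled intensities of 67.8 and 94.8 in DMSO culture and 119.5 and 133 in ethanol culture. In utero, Slc25a37 read 105 and 211 on the E13 vehicle arrays and 609 and 116 on the E16 vehicle arrays. Slc25a37 fell by 1.58 against E16, but the E16 vehicle arrays differed from each other by more than that, and the call was lost without E16 vehicle array 1 (value -0.46, adjusted p = 0.598). The same array held the higher erythroid sum of the pair. Slc25a39, a carrier of glutathione, fell by 1.47 (SE 0.23, limma, adjusted p = 0.000466) against E16, while its other tested probe set differed by 0.44 in the opposite direction. In ethanol culture Slc25a51l1 fell by 1.06 (SE 0.19, limma, adjusted p = 0.000815).

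Slc11a2, the proton-coupled importer of iron and other divalent metals (DMT1), had rescaled intensities of 931 and 970.0 in DMSO culture and 789.6 and 735 in ethanol culture. In utero, Slc11a2 read 263 and 377 on the E13 vehicle arrays and 278 and 237 on the E16 vehicle arrays. All 4 cultured readings of Slc11a2 were above all 4 in utero ones. Slc11a2 exceeded E13 by 1.55 (SE 0.20, limma, adjusted p = 0.000103) and E16 by 1.82 (SE 0.20, limma, adjusted p = 2.77e-05) in DMSO culture, and E13 by 1.23 (SE 0.20, limma, adjusted p = 0.000414) in ethanol culture. Its other probe set differed by 0.43 and 0.26 in DMSO culture. The transferrin receptor Tfrc, which delivers iron to the vesicles where this carrier works, rose by 0.46 (SE 0.16, adjusted p = 0.0433) in DMSO culture against E13 and 0.86 (SE 0.16, adjusted p = 0.00112) against E16, in medium that held transferrin. Slc40a1, the iron exporter, had differences of -0.22 (SE 0.18, limma, adjusted p = 0.417) from E13 and 0.26 (SE 0.18, limma, adjusted p = 0.324) from E16. Of the 28 carriers of metals and heme, 7 rose and none fell in DMSO culture against E13 and 7 rose and none fell against E16, with Slc30a7, Slc30a4, Slc39a11, Slc39a1 and Slc31a1 among the risers of both.

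Slc6a6 had rescaled intensities of 604 and 647 in DMSO culture and 614 and 709 in ethanol culture. In utero, Slc6a6 read 352 and 254 on the E13 vehicle arrays and 199.8 and 172 on the E16 vehicle arrays. The cultured readings of Slc6a6 were all above those in utero. Its differences in DMSO culture were 1.02 (SE 0.20, limma, adjusted p = 0.00187) from E13 and 1.67 (SE 0.20, limma, adjusted p = 4.20e-05) from E16, with 1.10 (SE 0.20, limma, adjusted p = 0.00075) in ethanol culture from E13. Its probe set of largest variance had a difference of 1.54 from E16 that missed the threshold (limma, adjusted p = 0.0528). The creatine carrier Slc6a8 rose with it, by 0.66, 0.82 and 1.00 in the same order. In ethanol culture 7 of 8 carriers of neurotransmitters and osmolytes rose, and in DMSO culture 3 rose and 1 fell. Adrenal and neural crest markers also rose against E13, for 5 of 6 in ethanol culture (median 1.77) and for 2 of 6 in DMSO culture, where 1 fell (median 0.52). Their summed rescaled intensity was 738 and 906 in ethanol culture and 261 and 381 in DMSO culture, against 199.4 and 236 on the E13 vehicle arrays, and their part in these carriers was not tested. Among the carriers of vitamins and nucleosides, the nucleoside carrier Slc29a1 rose by 1.47 (SE 0.26, limma, adjusted p = 0.000905) in DMSO culture, Slc52a3 by 1.47 (0.93 from the 40th percentile), and the thiamine carrier Slc19a2 by 1.23 in DMSO culture and 1.40 (SE 0.20, limma, adjusted p = 0.000151) in ethanol culture. Among ion carriers Slc9a9 rose by 1.64 in DMSO culture and Slc34a2 fell by 1.36, a call lost without any of 3 single arrays (highest adjusted p 0.225). From the 40th percentile these differences of Slc9a9 and Slc34a2 were 1.52 and -0.89.

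The other genes named by rule for culture were less stable. In DMSO culture against E13, Slc25a21 (1.25), Slc23a4 (-1.09), Slc27a4 (-0.98), Slc25a39 (-0.97), Slc52a2 (-0.87) and Slc6a4 (-0.83) were lost without 2 to 4 of the 4 arrays taken singly, with highest adjusted p-values of 0.268, 0.207, 0.253, 0.0714, 0.155 and 0.243, and Slc27a4 was then as small as -0.51. From the 40th percentile the differences of Slc25a21, Slc23a4 and Slc6a4 were 0.40, -0.13 and -0.39. Slc25a15 (-0.79), the ornithine carrier of mitochondria, kept its call without any single array. It lost the call with only the arrays of the comparison (adjusted p = 0.0585) and in its probe set of largest variance (-0.21, adjusted p = 0.637). In ethanol culture, Slc9a2 (1.40), Slc25a39 (-0.83), Slc16a13 (-0.79), Slc52a2 (-0.74), Slc12a2 (-0.71) and Slc25a13 (-0.70) were lost without 2 or 3 arrays, with highest adjusted p-values of 0.169, 0.0998, 0.113, 0.311, 0.0629 and 0.0671. The values of Slc9a2 and Slc52a2 were then as small as 0.83 and -0.38. The other probe set of Slc16a13 had a difference of 0.71, in the opposite direction. Slc35a4 (-0.74) kept its call. In DMSO culture against E16, Slc16a12 (1.36), Slc66a1 (1.24), Slc4a2 (1.09), Slc6a17 (-1.09), Slc7a12 (-1.04), Slc16a10 (-1.02) and Slc27a4 (-0.89) were lost in the same way, with highest adjusted p-values of 0.0907, 0.114, 0.106, 0.13, 0.172, 0.371 and 0.202. Without E16 vehicle array 1, the value of Slc16a10 was -0.42. From the 40th percentile the differences of Slc16a12 and Slc7a12 were 0.22 and -0.17.

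Of the 25 tested pump subunits, 8 rose and 1 fell in DMSO culture against E13. Atp6v1c2 rose by 2.39, Atp1b2 by 2.11 and Atp1b1 by 1.62, where Atp1b1 and Atp1b2 are beta subunits of the sodium pump. Of the 27 tested carriers under other symbols, 5 rose and 2 fell. Flvcr2, a carrier of choline and heme, rose by 2.78, and Rhag, an ammonia channel of red cells that is also on the erythroid list, fell by 2.34.

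No solute carrier passed an adjusted p of 0.05 for vinclozolin or flutamide. Averaged over the 3 stages (6 arrays a side), 14 of 213 had an unadjusted p under 0.05 in limma, and all 14 were higher in vinclozolin testes. Of all genes 0% passed the adjusted threshold and 3.16% the unadjusted one. The directions of these genes were not counted, so the shared direction of the 14 has no background to be read against. The median difference was 0.03 over the solute carriers and -0.01 over all genes. After quantile normalization the median over the solute carriers was 0.0059. The 95% intervals of 210 of the 213 lay within a 2-fold change either way. At E13, 4 had an unadjusted p under 0.05 (0% of all genes adjusted, 1.34% unadjusted). At E14 it was 11 (0.00856% of all genes adjusted, 5.66% unadjusted), and at E16 13 (0% adjusted, 4.31% unadjusted). A test of whether the vinclozolin difference varied between stages had 6 at an unadjusted p under 0.05 and none adjusted (0% and 3.26% of all genes).

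Slc30a2, a zinc exporter into vesicles, read 88.3 and 87.3 on the vinclozolin arrays of E13, against 78.1 and 116 on the vehicle arrays. For E14, Slc30a2 read 170.1 and 156 with vinclozolin, against 74.6 and 125 with vehicle. For E16, Slc30a2 read 97.4 and 89.6 with vinclozolin, against 56.7 and 61.9 with vehicle. The groups did not overlap at E14 and E16 and overlapped at E13. The mean difference of Slc30a2 was 0.37 (SE 0.13, limma, unadjusted p = 0.0114, adjusted p = 0.998). Slc7a1 read 281 and 276 on the vinclozolin arrays of E13, against 258 and 287 on the vehicle arrays. For E14, Slc7a1 read 353 and 393 with vinclozolin, against 259 and 323 with vehicle. For E16, Slc7a1 read 218 and 241 with vinclozolin, against 131 and 194 with vehicle. For Slc7a1 the groups also overlapped at E13 and were apart at the later stages, and the mean difference was 0.29 (SE 0.10, limma, unadjusted p = 0.0128, adjusted p = 0.998). Slc34a2, Slc6a3, the dopamine carrier, and Slc36a2 followed, with mean differences of 0.66, 0.61 and 0.43 and unadjusted p-values of 0.0152, 0.0127 and 0.0217. The value of Slc34a2 was 0.39 without E14 vehicle array 1.

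Single stages gave larger and less certain values. At E16, Slc7a14 read 14.5 and 35 on the vinclozolin arrays, against 0.9 and 1.6 on the vehicle arrays, all under the 40th percentile, a difference of 1.19 (SE 0.32, limma, unadjusted p = 0.00184, adjusted p = 0.508). Counted from that percentile, the 0.14 left is only the gap between the percentiles of the arrays. At E13, Slc36a2 read 25.8 and 24.6 with vinclozolin, against 6.7 and 3.2 with vehicle, a difference of 0.98 (SE 0.30, limma, unadjusted p = 0.00409, adjusted p = 1). These readings too were all under the 40th percentile, and the 0.06 counted from it is only such a gap. At E14, Slc16a12 read 0.6 and 6.9 with vinclozolin, against 47.2 and 12.9 with vehicle, a difference of -1.13 (SE 0.34, limma, unadjusted p = 0.0043, adjusted p = 0.888), or -0.13 from the 40th percentile. For Slc45a4 at the same stage the readings were 457 and 327 with vinclozolin, against 144 and 327 with vehicle, a difference of 0.78 (SE 0.29, limma, unadjusted p = 0.0144, adjusted p = 0.888). Without E14 vehicle array 2, 5 of 213 solute carriers passed the adjusted threshold at E14, against 1.52% of all genes in the same fit. Among the 5 were Slc16a12 (-1.70, limma, adjusted p = 0.0315) and Slc45a4 (1.33, limma, adjusted p = 0.0259). Without E14 vehicle array 1 instead, Slc16a12 differed by -0.57 and Slc45a4 by 0.23, with no call. Vehicle array 1 is the one with the lowest Sertoli and highest erythroid sum of that stage.

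In culture, vinclozolin gave 4 solute carriers an unadjusted p under 0.05 and flutamide 4, with none adjusted (0% of all genes in both, 2.54% and 1.82% unadjusted). The medians were 0.02 and 0.01, against 0.04 and -0.01 over all genes, and the 95% intervals of 187 and 191 of the 213 lay within a 2-fold change. Slc27a4, a fatty acid carrier, read 162 and 214 with vinclozolin, against 99.5 and 113 with DMSO, a difference of 0.73 (SE 0.27, limma, unadjusted p = 0.0152, adjusted p = 1). Slc26a8, an anion exchanger known from sperm, read 36.6 and 44 with vinclozolin, against 4.2 and 25.2 with DMSO, a difference of 0.96 (SE 0.44, limma, unadjusted p = 0.0444, adjusted p = 1), or 0.06 from the 40th percentile. Slc25a42, a mitochondrial carrier of coenzyme A, read 59.1 and 60 with flutamide, against 40 and 20 with ethanol, a difference of 0.75 (SE 0.22, limma, unadjusted p = 0.00303, adjusted p = 1). Slc6a3 read 46.3 and 48 with flutamide, against 31.2 and 11.4 with ethanol, a difference of 0.81 (SE 0.38, limma, unadjusted p = 0.0468, adjusted p = 1). Without DMSO array 1 the value of Slc26a8 was 0.45, and without DMSO array 2 it was 1.48. Without ethanol array 2 the values of Slc25a42 and Slc6a3 were 0.43 and 0.42. The groups did not overlap for any of these 4 genes, as for 59 and 72 of the 213 with vinclozolin and flutamide and for 28.4% and 37.4% of all genes.

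The 2 compounds were given at different doses, in different vehicles and on separate sets of arrays, so their differences stand side by side. Tested directly, the vinclozolin difference minus the flutamide difference had 6 of 213 at an unadjusted p under 0.05 and none adjusted (0% and 2% of all genes). The smallest p belonged to Slc45a3, a relative of sugar carriers, with 0.42 for vinclozolin and -0.47 for flutamide (95% interval of the difference 0.24 to 1.54, adjusted p = 1). Slc38a3, a glutamine carrier, had -0.45 for vinclozolin and 0.57 for flutamide (95% interval of the difference -1.84 to -0.20), and -0.16 and 0.11 from the 40th percentile. The interval lay within a 2-fold change for 132 of the 213 genes, and for the others it reached past a 2-fold gap. Slc2a3, Slc16a1, Slc11a2 and Slc6a6, which differed between culture and E13, had vinclozolin differences in culture of 0.19, -0.12, 0.07 and -0.13 and flutamide differences of 0.10, 0.06, -0.20 and -0.13.

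**Figure D5:**
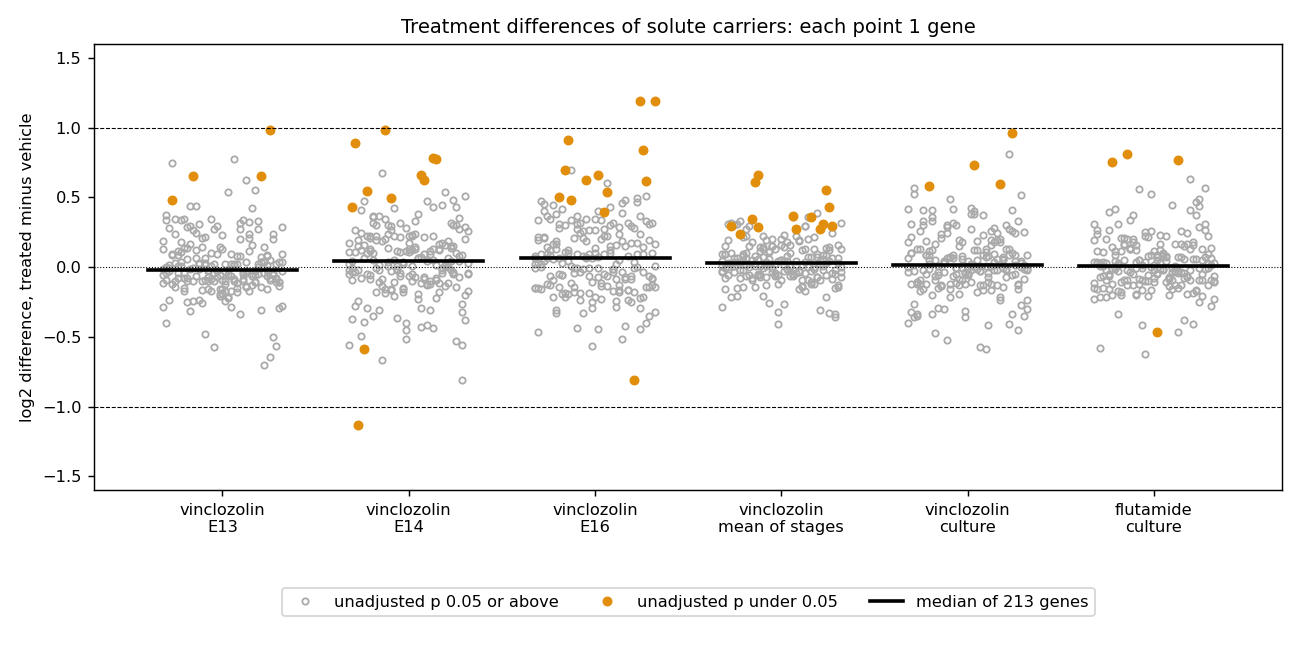
Log2 difference of treated minus vehicle (y axis) for the 213 solute carriers in 6 comparisons (x axis), each point 1 gene, black lines the medians, dashed lines 2-fold changes, filled points at an unadjusted p under 0.05. None passed after adjustment, and all 14 filled points of the mean over stages lie above 0. The directions over all genes at this threshold were not counted.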

How the data were processed

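RNA of 20 testis samples was hybridized to Affymetrix rat arrays, 2 for each of 10 groups. The deposited values are probe set intensities from the authors' scanner software, GCOS with the MAS5 algorithm per the submitters' processing notes, with versions not given in the sources used here. These values are on a linear scale, and each set of arrays was brought to its own trimmed mean, as read from the values after leaving out 2% at each end. For culture against in utero, all arrays were rescaled to 1 trimmed mean. Of 31042 probe sets left after 57 controls, the 22526 at or above the 40th percentile on at least 2 arrays were tested as log2(intensity + 16) in limma 3.58.1 (R 4.3.3), with 1 mean for each group and a variance trend. P-values were adjusted by Benjamini-Hochberg over all tested probe sets, with a threshold of 0.05. The 16 added to each intensity understates differences of low probe sets, and the number of arrays limits the precision. A difference counted from the 40th percentile sets readings under it to that percentile. The percentile differed between arrays, for example 26.5 on ethanol array 2 and 42.1 on E16 vinclozolin array 1 before rescaling. Where both groups lay under it, only the gap between the percentiles of the arrays was left. The scripts were tested on simulated data. There 44% of 2-fold changes passed for vinclozolin against DMSO in culture and 36% for DMSO culture against E13. For vinclozolin averaged over stages and for E16 against E13 it was 93% and 82%.

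The genes and lists were chosen with earlier results of these data known. Genes are named by rule: in each comparison, up to 10 rises and 10 falls of largest size among those past the threshold without overlap between groups, 10 fixed genes, and for each substrate class the gene of highest mean level and that of largest E16 to E13 difference. Where fewer than 5 passed, the 5 of smallest unadjusted p are named, of which the text gives some in full. Other carriers are examples chosen after their values were seen. Same-numbered arrays correlated in their deviations at 0.60 for E13, -0.05 for E14, -0.11 for E16, 0.12 for the vinclozolin culture and -0.0001 for the flutamide culture. The labels tie cultured gonads into pairs but do not say that the numbers mark them, so the numbers were not taken as pairs. Alternatives changed the normalization, the added value, the filter, the trend, the probe set of a gene and the arrays used.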

Additional observations from a re-analysis of the deposited data

How the results depend on the processing

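Counts of solute carriers past the threshold moved by over 1.5 times under these alternatives. From E13 to E14 (57 in the fit used) there were 18 with only the arrays of the comparison, 31 without the E13 arrays numbered 1, 6 in the vehicle arrays only, 29 in the vinclozolin arrays only, and 33 to 62 without single arrays. From E14 to E16 (83) there were 45 in the vehicle arrays only. From E13 to E16 (49) there were 30 without the E13 arrays numbered 1, 24 in the vehicle and 19 in the vinclozolin arrays only. The vinclozolin arrays only were added as an alternative after the data were seen. DMSO culture against E13 (57) gave 23 with only its own arrays, 37 without the E13 array numbered 1, and 26 to 40 without single arrays. Ethanol culture against E13 (76) gave 44 without that E13 array and 44 to 55 without single arrays, and DMSO culture against E16 (54) gave 25 to 45. Leaving out single arrays gave 0 to 5 for vinclozolin at E14. Fewer arrays enter these fits, and the cause was not tested further. With the probe set of largest variance, 4 genes turned direction: Slc38a1 from E13 to E14 (0.35), Slc29a3 for vinclozolin at E13 (-0.30), Slc6a6 for vinclozolin at E14 (-0.0954) and Slc16a13 in ethanol culture (0.71). With the replicate number as a block the 3 stage counts were 61, 83 and 46, the culture counts 58, 76 and 56, and every treatment count 0, so the block moved no count by 1.5 times, and pairing the E16 arrays across numbers, chosen after seeing the data, also gave 0.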
